A study of Mus musculus with 4 samples.

Results

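The genes described here are the 10 mouse genes that encode or run the MHC class II presentation pathway, picked by symbol from a table of 18598 genes, and all 10 were in it. They were *H2-Aa*, *H2-Ab1*, *H2-Eb1*, *H2-DMa*, *H2-DMb1*, *H2-DMb2*, *H2-Oa*, *H2-Ob*, *Cd74* and *Ciita*. No threshold on a value entered the choice, but the family was put forward with the genotype difference of these same libraries known, so its differences between genotypes are given as a description. RNA-seq was performed on LSK cells, the lineage-negative, SCA-1 and c-KIT positive fraction of bone marrow that contains hematopoietic stem and progenitor cells, of C57BL/6 mice about 3 months old. The control group, labelled control and called *Bptf* f/f here, was *Bptf* f/f littermates, and the *Bptf* cKO group, labelled *Bptf* -/-, carried *Bptf* f/f with *Mx1*-cre. Each group had 2 libraries, and each library came from the pooled cells of 5 mice 10 days after cre induction. Pools hide the difference between single mice, so the spread given here is that between 2 pools. Cre was induced with repeated injections of pIpC, which triggers interferon and thereby the interferon-inducible *Mx1* promoter, and littermate controls were given pIpC too. The floxed alleles were thus common to both groups, cre was present in the cKO group alone, and *Mx1*-cre is active in many interferon-responsive cells besides stem cells.

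MHC class II molecules show peptides from endosomes to CD4+ T cells. Their alpha and beta chains assemble with the invariant chain, the product of *Cd74*, which blocks the peptide groove and guides the complex to endosomes, where it is cut down to the CLIP fragment. H2-DM, a heterodimer of the *H2-DMa* product with a beta chain from *H2-DMb1* or *H2-DMb2*, exchanges CLIP for peptide, and H2-DO, the heterodimer of the *H2-Oa* and *H2-Ob* products, restrains H2-DM. *Ciita* encodes the coactivator that most class II, *Cd74* and H2-DM transcription depends on, and it acts through RFX and NF-Y proteins bound to X and Y box elements upstream of these genes. B cells, dendritic cells and macrophages carry class II at high level. C57BL/6 mice make the I-A molecule from *H2-Aa* and *H2-Ab1* but no I-E molecule, since they have no functional *H2-Ea* gene to partner *H2-Eb1*.

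Of the genes, 8 sit in the class II region of chromosome 17, in the order *H2-Oa*, *H2-DMa*, *H2-DMb2*, *H2-DMb1*, *H2-Ob*, *H2-Ab1*, *H2-Aa* and *H2-Eb1*, from 34092340 to 34316674 in GENCODE vM21 on GRCm38. *H2-DMb1* runs on the plus strand from 34153072 to 34160230, directly downstream of *H2-DMb2*, which runs from 34143307 to 34151555. RefSeq promoters on GRCm38.p6 were matched by symbol for 7 of the 10 genes, with *H2-Ab1*, *Cd74* and *Ciita* unmatched. The 150 bases before the RefSeq start are shown for 6 of them, because they place the genes that differed most between genotypes beside a paralogue and 3 other class II genes. For *H2-DMb1*, *H2-DMb2* and *H2-Oa* the RefSeq start lies downstream of the GENCODE start. Their windows thus reach into the GENCODE gene span, and that of *H2-DMb2* lies wholly inside it. Capitals mark the letters AACNNATGATG, which lie within an X box, and TGATTGG, a Y box with the inverted CCAAT sequence.
H2-DMb1: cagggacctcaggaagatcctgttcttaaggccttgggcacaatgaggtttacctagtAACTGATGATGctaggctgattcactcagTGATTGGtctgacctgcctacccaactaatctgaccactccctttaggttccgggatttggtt
H2-DMb2: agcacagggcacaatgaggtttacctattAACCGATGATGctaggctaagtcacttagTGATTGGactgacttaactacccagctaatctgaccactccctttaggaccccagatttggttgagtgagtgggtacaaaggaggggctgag
H2-Ob: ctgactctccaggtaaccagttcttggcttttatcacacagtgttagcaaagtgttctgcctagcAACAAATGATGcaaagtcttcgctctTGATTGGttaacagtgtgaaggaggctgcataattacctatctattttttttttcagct
H2-Eb1: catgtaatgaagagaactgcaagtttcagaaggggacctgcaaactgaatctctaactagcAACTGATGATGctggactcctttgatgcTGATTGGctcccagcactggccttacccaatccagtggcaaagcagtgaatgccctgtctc
H2-Aa: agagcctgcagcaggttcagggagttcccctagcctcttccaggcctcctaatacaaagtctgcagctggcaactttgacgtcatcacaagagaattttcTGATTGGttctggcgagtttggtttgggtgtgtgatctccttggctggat
H2-Oa: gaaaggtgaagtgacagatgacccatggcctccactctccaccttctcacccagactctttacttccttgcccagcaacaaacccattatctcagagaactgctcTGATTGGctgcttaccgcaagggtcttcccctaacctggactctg
*H2-DMb1* is shown from chr17:34153041-34153190, *H2-DMb2* from chr17:34145099-34145248, *H2-Ob* from chr17:34238755-34238904, *H2-Eb1* from chr17:34305717-34305866 and *H2-Oa* from chr17:34092229-34092378, all on the plus strand, and *H2-Aa* is shown from chr17:34287824-34287973 on the minus strand. Both sets of letters were present in *H2-DMb1*, *H2-DMb2*, *H2-Ob* and *H2-Eb1*, with 18, 18, 15 and 17 bases between them. *H2-Oa* and *H2-Aa* held TGATTGG alone, and neither of the 2 windows of *H2-DMa* held either, which says only that these letters were not in those windows. Over all 32851 promoter windows of 300 bases, read on both strands, AACNNATGATG was in 0.137% and TGATTGG in 7.82%. The first followed by the second within 40 bases was in 4 windows, 0.0122%, and these were the 4 windows named above. The first set of letters was derived from these promoters, as the 11 bases before TGATTGG that 4 of them share best, so the share is a description. *H2-DMb1* and *H2-DMb2* were identical at 208 of 247 aligned promoter bases, 84.2%, which leaves out 106 gap positions in the alignment of the 300-base windows.

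Values are gene counts that the authors divided by a size factor for each library, called normalized counts, with 14091054 to 30134742 recovered reads per library. A gene was tested if its mean over the 4 libraries was at least 10, which held for 14858 genes and for all 10 class II genes, and it was called if the limma adjusted p was under 0.05 with a fold change above 1.5. The log2 fold change, log2FC, is the cKO minus f/f difference of log2(normalized count + 1), a scale that understates the change of low genes, and SE is its standard error. With 2 libraries per genotype an exact permutation test of 1 gene cannot give a two-sided p below 0.333. Over all tested genes limma called 0.37% lower and 0.37% higher, edgeR 0.303% and 0.33%, and DESeq2 2.95% and 1.7%. A short list with 0 calls therefore says little about whether its genes changed. *Bptf* itself had 5520.4 and 5850.1 normalized counts in f/f and 3398 and 3319.9 in cKO, lower in both cKO libraries (log2FC -0.76, adjusted p 0.0439 by limma and 0.0531 by edgeR). The LSK markers *Kit* and *Cd34* were high in every library, at 13634 or more and 12749 or more normalized counts. Of 8 LSK markers limma, edgeR and DESeq2 each called 0, and the median log2FC was -0.53. An unadjusted p under 0.05 held for 2 of the 8 (15.7% of all tested genes). Both cKO libraries lay below both f/f libraries for 3 of the 8 (23.8% of all tested genes). *Hlf*, a stem cell factor, had 6952 and 8795 in f/f and 5022 and 6394 in cKO. In bulk RNA fewer cells of one type and less RNA per cell cannot be told apart. The libraries numbered 2 held 3976 and 5292 normalized counts of *Igkc*, the immunoglobulin kappa constant gene, against 174.4 and 486 in those numbered 1, and the labels do not say what the numbers stand for beyond a replicate.

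*H2-DMb1*, a beta chain of the peptide exchanger H2-DM, was the class II gene that differed most between genotypes, 10.0-fold lower on average in *Bptf* cKO. It had 349.6 and 428 normalized counts in the *Bptf* f/f libraries 1 and 2 and 32.5 and 45.2 in the *Bptf* cKO libraries 1 and 2. Both cKO libraries lay far below both f/f libraries, and within a genotype the libraries differed by at most 1.39-fold. The means were 389 ± 55.6 and 38.8 ± 8.95 (SD, n = 2 each), where the log2FC was -3.30 with SE 0.27 (0.0222 as adjusted p, limma). The fold was 10.8 between the libraries numbered 1 and 9.49 between those numbered 2. At least 32 reads lay behind each value. It ranked 26 from the most negative log2FC among the 14858 tested genes. Without cKO replicate 1 the limma adjusted p was 0.111, without cKO replicate 2 it was 0.0584 and without f/f replicate 2 it was 0.0608, while the log2FC stayed between -3.53 and -3.07.

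Neither of the other H2-DM genes passed the test. *H2-DMa*, the alpha chain, had 2377 and 1839 normalized counts in f/f and 1925 and 2368 in cKO, so the groups overlapped. Its log2FC was 0.030 with SE 0.17 (0.961 as adjusted p, limma). *H2-DMb2*, the second beta chain gene, had 75.2 and 33.3 in f/f and 63.0 and 19.8 in cKO, from as few as 14 reads. Its groups overlapped as well, and its libraries differed more by number than by genotype (log2FC -0.49, SE 0.69, adjusted p by limma 0.805).

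The proportion of beta chain to alpha chain counts was lower in both cKO libraries. Per *H2-DMa* count, the *H2-DMb1* count was 0.147 and 0.233 in f/f and 0.0169 and 0.0191 in cKO. *H2-DMb1* made up 82.3% and 92.8% of the summed beta chain counts in f/f and 34.0% and 69.6% in cKO. The 2 beta chain genes are near copies, with 95.9% identity over open reading frames of 786 bases, and 27.2% of the 50-base windows of the *H2-DMb1* transcript also occurred in *H2-DMb2* transcripts. How reads matching both genes were counted is not given in the sources used here, so the split between them is less certain than their sum. The sum of both per *H2-DMa* count was 0.179 and 0.251 in f/f and 0.0496 and 0.0274 in cKO, still without overlap of the groups. *H2-DMa* overlaps *Brd2* and other annotated genes, and *H2-DMb1* and *H2-DMb2* overlap no annotated gene.

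**Figure D1:**
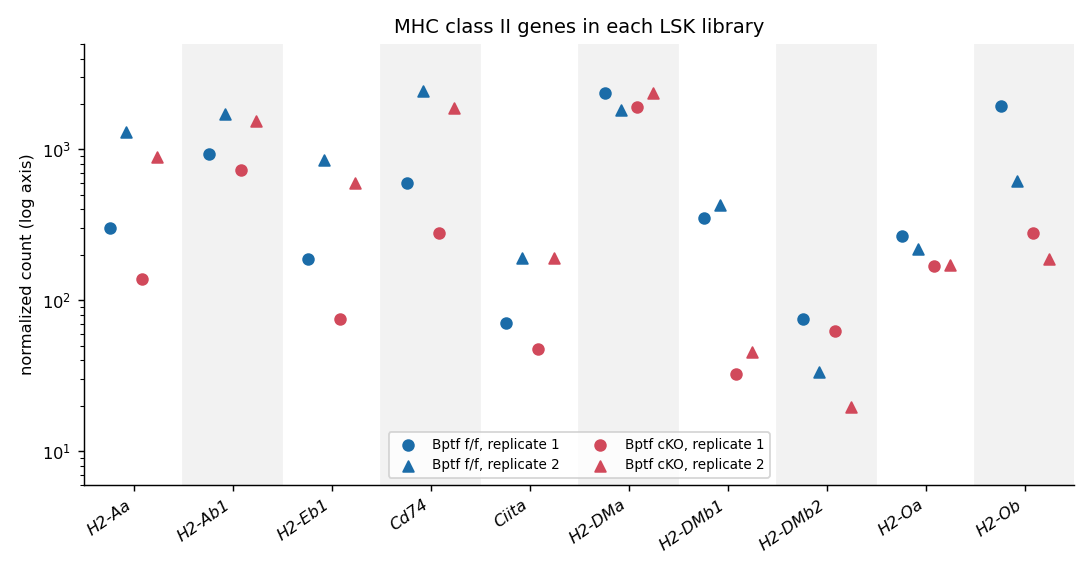
Normalized counts (log axis) of the 10 class II genes in each library, with *Bptf* f/f in blue, *Bptf* cKO in red, replicate 1 as circles and replicate 2 as triangles. *H2-DMb1* separates by colour, at 349.6 and 428 against 32.5 and 45.2, whereas *H2-Aa*, *H2-Eb1*, *Cd74* and *Ciita* separate by symbol.

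*H2-Ob*, the beta chain of the H2-DM inhibitor H2-DO, was also lower in both cKO libraries but did not pass the test. It had 1954 and 619.5 normalized counts in f/f and 277.5 and 189 in cKO. The groups did not overlap, yet f/f replicate 2 stood at 0.317 times f/f replicate 1. The means were 1287 ± 944 and 233 ± 62.5 (SD, n = 2 each), and the log2FC was -2.26 with SE 0.55 (0.158 as adjusted p, limma). The f/f level was 7.04 times the cKO level in the libraries numbered 1 and 3.28 times in those numbered 2. DESeq2 on the recovered reads gave *H2-Ob* an adjusted p of 0.0367, and limma without the mean-variance trend gave 0.313. With the replicate number as a block the adjusted p was 3.81e-05 in limma and 2.82e-05 in edgeR. The call of *H2-Ob* thus depends on the fit and on whether the numbers pair the libraries, which the labels do not say. With a library left out, its log2FC ran from -3.09 to -1.43.

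*H2-Oa*, which encodes the alpha chain of H2-DO, differed less. Its 267 and 220.4 normalized counts in f/f lay above the 169 and 172 in cKO, where the log2FC was -0.50 with SE 0.20 (0.313 as adjusted p, limma). Per *H2-Oa* count, *H2-Ob* stood at 7.33 and 2.81 in f/f and at 1.64 and 1.10 in cKO. Both f/f values were above both cKO values, and the f/f libraries again differed from each other more than the cKO libraries did. *H2-Oa* overlaps an annotated antisense gene, and *H2-Ob* overlaps none.

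**Figure D2:**
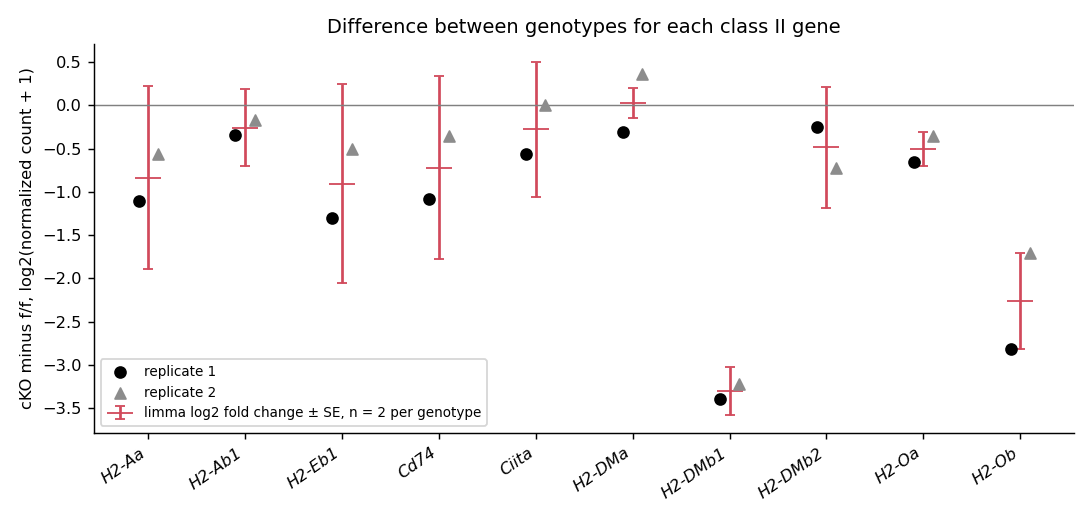
Difference between *Bptf* cKO and *Bptf* f/f for each class II gene on the log2(normalized count + 1) scale, for the libraries numbered 1 (black circles) and 2 (grey triangles), with the limma log2FC ± standard error in red (n = 2 libraries per genotype). *H2-DMb1* lies at -3.30 with a narrow error, *H2-Ob* at -2.26 with a wider one, and the error bars of *H2-Aa*, *H2-Eb1*, *Cd74* and *Ciita* cross 0.

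The genes of the peptide-binding chains and the invariant chain had levels that followed the replicate number more than the genotype. *H2-Aa*, the alpha chain of I-A, had 299.97 and 1309.7 normalized counts in f/f and 138 and 887 in cKO. *Cd74*, the invariant chain gene on chromosome 18, had 595 and 2428 in f/f and 280.8 and 1892 in cKO. *H2-Eb1* had 187 and 854 in f/f and 75.4 and 599.6 in cKO. Per library, each of these 3 genes was lowest in cKO replicate 1 and highest in f/f replicate 2, and their groups overlapped.

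The replicate 2 library exceeded the replicate 1 library 4.37-fold in f/f and 6.41-fold in cKO for *H2-Aa*. For *Cd74* the 2 values were 4.08 and 6.74, and for *H2-Eb1* they were 4.57 and 7.95. *Ciita*, the coactivator gene on chromosome 16, had 70.5 and 189.9 normalized counts in f/f and 47.4 and 190.5 in cKO, which was 2.69-fold and 4.01-fold higher in the replicate 2 library. *H2-Ab1*, the beta chain of I-A, had 926 and 1727 in f/f and 728 and 1539 in cKO, 1.86-fold and 2.11-fold higher. Of the 10 class II genes, 4 were more than 2-fold higher in the replicate 2 library in both genotypes, which held for 1.31% of all tested genes. *H2-DMb2* went the other way, with replicate 2 at 0.442 times replicate 1 in f/f and 0.313 times in cKO.

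None of these 5 genes was called in the comparison of genotypes. *H2-Eb1* and *Ciita* overlap annotated genes on the opposite strand, and whether reads were counted by strand is not given in the sources used here. The log2FCs were -0.84 for *H2-Aa*, -0.26 for *H2-Ab1*, -0.90 for *H2-Eb1*, -0.72 for *Cd74* and -0.28 for *Ciita*. The standard errors were 1.06, 0.44, 1.15, 1.06 and 0.78 and the limma adjusted p values 0.773, 0.844, 0.774, 0.811 and 0.916, in the same order. Between libraries of the same number, *H2-Aa*, *H2-Eb1* and *Cd74* were lower in cKO both times, by log2 differences of -1.11, -1.30 and -1.08 for number 1 and -0.56, -0.51 and -0.36 for number 2. *Ciita* differed by -0.56 for number 1 and by 0.0045 for number 2. Without a block, the log2FC of each of the 5 genes was smaller than its standard error. With the replicate number as a block, limma gave *H2-Aa*, *H2-Eb1* and *Cd74* the same log2FC and adjusted p values of 0.00429, 0.0107 and 0.00807, so their call depends on whether the numbers pair the libraries, which the labels do not say.

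**Figure D3:**
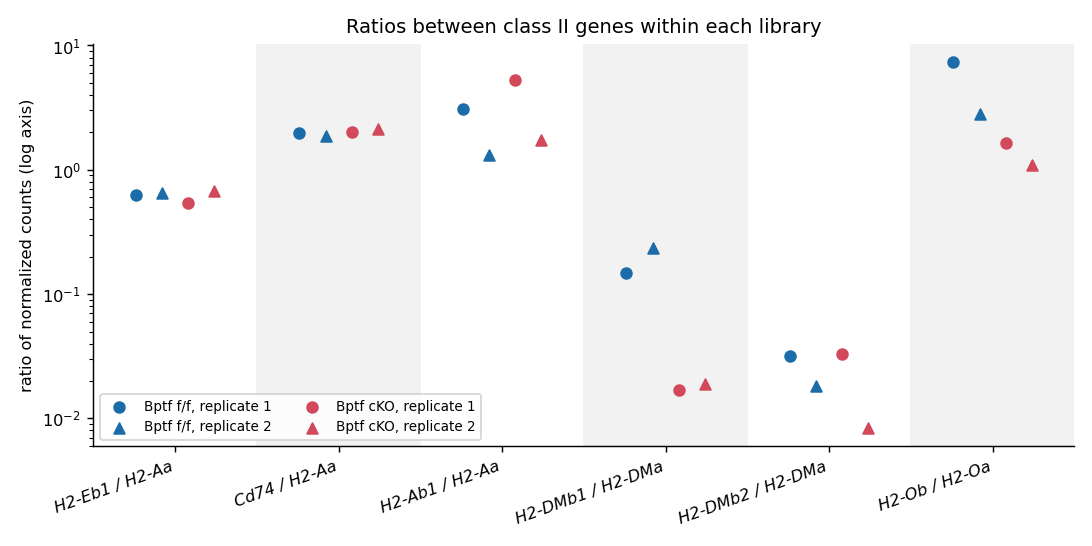
Ratios of normalized counts (log axis) between class II genes within each library, with *Bptf* f/f in blue, *Bptf* cKO in red, replicate 1 as circles and replicate 2 as triangles. *Cd74* over *H2-Aa* stays between 1.85 and 2.13 in all 4 libraries, whereas *H2-DMb1* over *H2-DMa* is 0.147 and 0.233 in f/f and 0.0169 and 0.0191 in cKO.

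*Cd74* and *H2-Eb1* kept a near-fixed proportion to *H2-Aa* within a library. *Cd74* stood at 1.98 and 1.85 counts per *H2-Aa* count in f/f and at 2.03 and 2.13 in cKO. *H2-Eb1* stood at 0.623 and 0.652 in f/f and at 0.545 and 0.676 in cKO. Although the level of *H2-Aa* spanned 138 to 1309.7 normalized counts, these ratios moved little in either genotype. *Ciita* varied more, at 0.235 and 0.145 counts per *H2-Aa* count in f/f and 0.343 and 0.215 in cKO. *H2-Ab1* did not keep this proportion, with 3.09 and 1.32 counts per *H2-Aa* count in f/f and 5.26 and 1.73 in cKO, higher in both libraries numbered 1. *H2-DMb1* had 1.17 and 0.327 in f/f and 0.235 and 0.0509 in cKO per *H2-Aa* count, which spans a wider range than any of these ratios.

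Per kilobase of the longest coding transcript, the f/f means placed *H2-Ab1* at 1095, *Cd74* at 1072 and *H2-DMa* at 1051 normalized counts, a difference smaller than the spread of any of the 3 between libraries. *H2-Aa* followed at 714, *H2-Ob* at 482, *H2-Eb1* at 312, *H2-DMb1* at 277 and *H2-Oa* at 224, and *H2-DMb2* at 36.6 and *Ciita* at 21.7 were lowest. Neighbours in this order differed by less than the larger of their SDs, except *H2-DMb1* from *H2-Oa* and *H2-Oa* from *H2-DMb2*. In cKO, *H2-DMa* was at 1070.5, *H2-Ab1* at 935 and *Cd74* at 771, and *H2-Aa*, *H2-Eb1* and *H2-Oa* were at 455, 202 and 157. *H2-Ob* was at 87.4 in cKO, and *H2-DMb1*, at 27.7, stood beside *H2-DMb2* at 27.9. Across the 10 genes, limma called 1 lower and 0 higher in cKO, where 0.37% of all tested genes were called lower and 0.37% higher. EdgeR called 1 lower and 0 higher (all tested genes 0.303% and 0.33%), and DESeq2 called 2 lower, *H2-DMb1* and *H2-Ob*, and 0 higher (2.95% and 1.7%). With the replicate number as a block, 5 were called lower and 0 higher, by limma (5.69% and 3.06%) and by edgeR (5.75% and 3.08%), although the labels do not say that the numbers pair libraries. At an unadjusted p under 0.05 there were 3 class II genes, *H2-DMb1*, *H2-Ob* and *H2-Oa*, beside 15.7% of all tested genes, and these were also the 3 whose cKO libraries both lay below both f/f libraries. Such separation held for 23.8% of all tested genes downwards and 23.2% upwards. The median log2FC of the 10 genes was -0.61, beside 0.001 over all tested genes.

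Of 17 regulators, which cover RFX and NF-Y subunits, CREB1, PU.1, interferon regulatory factors, the interferon-gamma receptor pathway and the repressor PRDM1, limma called 0 in either direction, with 1 at an unadjusted p under 0.05 and 0 called by edgeR or DESeq2. Their log2FC ran from -0.85 to 0.56 with a median of -0.076. Both cKO libraries lay below both f/f libraries for 7 of the 17, beside 23.8% of all tested genes. Of all tested genes, 15.7% had an unadjusted p under 0.05. The 1 gene at an unadjusted p under 0.05 was *Rfx5*, an RFX subunit gene, with 1168 and 1084 normalized counts in f/f and 919 and 749 in cKO. *Irf8*, a factor of dendritic and B cells, had the lowest log2FC, with 1789 and 708 in f/f and 645 and 604 in cKO (adjusted p by limma 0.424), and was called lower without f/f replicate 2 and with the replicate block. Both were picked after their values were seen. *Nfya*, an NF-Y subunit that binds the Y box, had 6236 and 6644 normalized counts in f/f and 5777 and 5716 in cKO (log2FC -0.16, SE 0.089, adjusted p by limma 0.457). *Creb1*, which binds beside RFX, and *Jak1*, a kinase of the interferon receptors, both had log2FCs of 0.02, with limma adjusted p values of 0.953 and 0.938.

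Of 15 genes for antigen processing, surface turnover and costimulation, 13 were tested and limma called 0. An unadjusted p under 0.05 held for 2 of the 13 (15.7% of all tested genes). DESeq2 called 1 of them lower, *Ctsh*, a lysosomal aminopeptidase named for that call, and edgeR called 0. The most abundant were the lysosomal proteases *Ctsb*, *Ctsd* and *Ctsz*, with log2FCs of -0.18, 0.24 and 0.018 and limma adjusted p values of 0.656, 0.410 and 0.962. Their groups overlapped for *Ctsb* and *Ctsz*. *Ctsd* was at 3404 and 2933 normalized counts in f/f, below the 3558 and 3920 in cKO.

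Of 21 genes that lie among or beside the class II genes on chromosome 17, 19 were tested and limma called 0, with 3 at an unadjusted p under 0.05 and 0 called by edgeR or DESeq2. Their median log2FC was 0.22, and they ranged from -0.72 to 0.56. Of all tested genes, 15.7% had an unadjusted p under 0.05. *Brd2*, a bromodomain gene next to *H2-DMa*, had a log2FC of 0.027 (0.934 as adjusted p, limma). *Tap1* and *Tap2*, which encode the peptide transporter of the class I pathway and lie between *H2-DMb1* and *H2-Ob*, had log2FC values of 0.48 and 0.43 (adjusted p by limma 0.252 and 0.246). *Tap1* had 6509 and 6486 normalized counts in f/f and 7802 and 10529.8 in cKO, and both cKO libraries were above both f/f libraries.

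**Figure D4:**
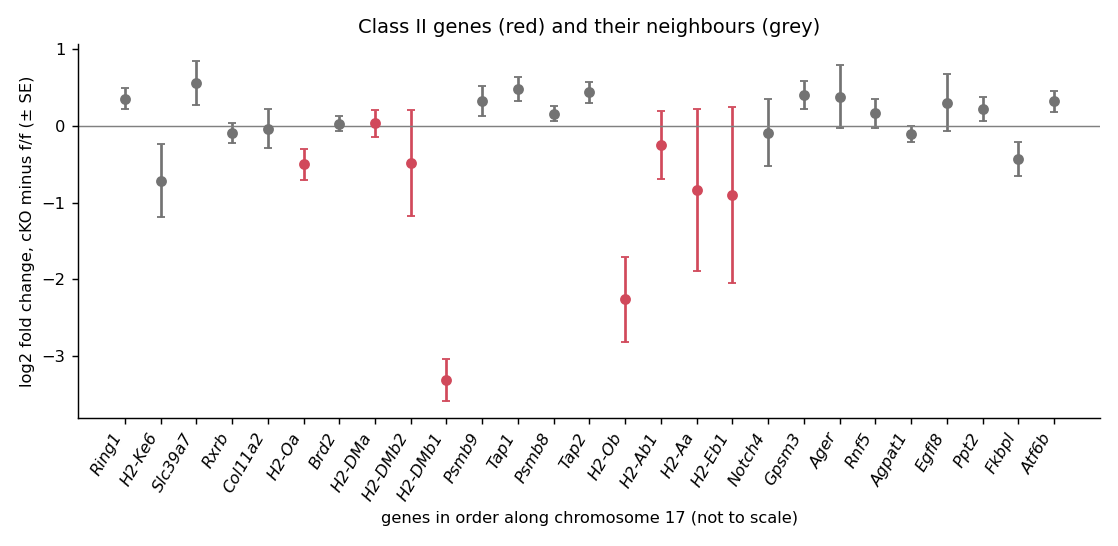
Log2 fold changes (cKO minus f/f, ± limma standard error, n = 2 libraries per genotype) of the tested class II genes (red) and neighbouring genes (grey), placed in their order along chromosome 17 and not to scale. *H2-DMb1* at -3.30 and *H2-Ob* at -2.26 stand below their neighbours, which lie between -0.72 and 0.56.

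Cells that carry class II at high level were looked for by their markers. Of 9 B cell markers 8 were listed and 6 tested. Limma, edgeR and DESeq2 each called 0, and 0 were at an unadjusted p under 0.05 (15.7% of all tested genes). Their summed level was 7029.6 and 1778 normalized counts in f/f and 3309 and 2047 in cKO, highest in f/f replicate 1, their median log2FC was -0.24, and *Ms4a1* was at 0 in cKO replicate 2. Of the 6 tested B cell markers, 5 were higher in replicate 1 than in replicate 2 of both genotypes, and *Cd22* was not. How many of all tested genes share this pattern was not computed. *Pax5*, the B-lineage factor, had 1710 and 410.2 in f/f and 902 and 503.7 in cKO. *Ebf1*, another B-lineage factor, had 1346 and 234 in f/f and 718 and 346 in cKO, and *Cd79b*, part of the B cell receptor, had 1231 and 556 in f/f and 679.8 and 495 in cKO. *H2-Ob*, like these markers, was highest in f/f replicate 1, whereas *H2-Aa*, *H2-Eb1*, *Cd74* and *Ciita* were higher in the libraries numbered 2. *Blnk*, a B cell adaptor, and *Cd79a*, part of the B cell receptor, were picked after their values were seen. *Blnk* had 1525 and 326 in f/f and 349.7 and 279 in cKO, and *Cd79a* had 1166 and 209 in f/f and 629 and 385 in cKO. The part of B-lineage cells in the values of *H2-Ob* was not tested.

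The 9 immunoglobulin and plasma cell genes had a summed level of 9411 and 17058 normalized counts in f/f and 6632 and 19776 in cKO, higher in both libraries numbered 2. All 9 were tested, and limma, edgeR and DESeq2 each called 0, with 0 at an unadjusted p under 0.05 (15.7% of all tested genes). *Ighm*, the mu heavy chain gene, had 6876 and 9498 in f/f and 3587 and 9960 in cKO. *Xbp1*, a plasma cell factor, stayed between 1784 and 2196. *Igha* was at 0 in both libraries numbered 1 and at 448 and 1452 in those numbered 2, and *Iglc2* was at 0 in f/f replicate 1. *Jchain*, picked after its values were seen, had 35.7 and 613 in f/f and 85.8 and 899 in cKO. *Igkc*, *Jchain*, *Igha*, *Iglc1*, *Iglc2* and *Ighm* were higher in the libraries numbered 2 in both genotypes, as *Cd74* and *H2-Aa* were. *Ighd*, the delta heavy chain gene, and *Mzb1*, a B and plasma cell chaperone gene, were higher in those numbered 1. *Ighd* had 151.9 and 43.0 in f/f and 42.2 and 36.7 in cKO, and *Mzb1* had 387 and 122.0 in f/f and 231 and 125.6 in cKO. The part of these genes' cells in the class II values was not tested.

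Dendritic cell markers, 8 of 10 listed and all 8 tested, had a summed level of 8315 and 7881 normalized counts in f/f and 6889 and 8016 in cKO. Limma and edgeR called 0, and 2 were at an unadjusted p under 0.05 (15.7% of all tested genes). DESeq2 called 1 lower, *Zbtb46*, a factor of conventional dendritic cells named for that call. It had 63.6 and 73.5 in f/f and 12.3 and 16.9 in cKO. The median log2FC of the 8 was -0.80, and 5 had both cKO libraries below both f/f libraries, beside 23.8% of all tested genes, among them *Cst3* at 3239 and 3389 in f/f and 2591 and 3029 in cKO. *Tcf4* and *Bst2* had log2FCs of -0.20 and 0.44. *Zbtb46* and *Ccr9*, both at low counts, had log2FCs of -2.16 and -3.42 (adjusted p by limma 0.0926 and 0.270). *Ccr9* had 45.7 and 22.2 in f/f and 8.45 and 0 in cKO. *Xcr1*, *Clec9a*, *Zbtb46* and *Cst3* were each lowest in cKO replicate 1 and highest in f/f replicate 2, as *H2-Aa*, *Cd74* and *H2-Eb1* were. *Xcr1* had 10.1 and 43.0 in f/f and 0.65 and 9.88 in cKO, from as few as 1 read. *Clec9a* had 21.7 and 37.4 in f/f and 10.4 and 21.2 in cKO. Of the 8 markers, 5 were higher in the replicate 2 library of both genotypes and 2 in the replicate 1 library. Of 10 macrophage and monocyte markers limma, edgeR and DESeq2 called 0, with 2 at an unadjusted p under 0.05 (15.7% of all tested genes). Their summed level was 2004 and 1071 in f/f and 1650.2 and 2248 in cKO. *Ly6c2*, *Cd68* and *Csf1r* were the most abundant of these, with log2FCs of 1.15, -0.093 and -1.19. *Csf1r* was at 598 and 137 in f/f and 101 and 155 in cKO, highest in f/f replicate 1. *Ly6c2* was at 525.5 and 239.8 in f/f and 852 and 729.5 in cKO, highest in cKO replicate 1. Of the 10, 4 were higher in the replicate 2 library of both genotypes, *C1qa*, *C1qb*, *C1qc* and *Adgre1*, all at low counts. Only 1 was higher in the replicate 1 library of both. *C1qa* had 22.5 and 48.5 in f/f and 15.6 and 143.9 in cKO, and *C1qb* had 31.0 and 38.8 in f/f and 19.5 and 200.4 in cKO. How many of all tested genes share this pattern was not computed. The part of these cells in the class II values was not tested.

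**Figure D5:**
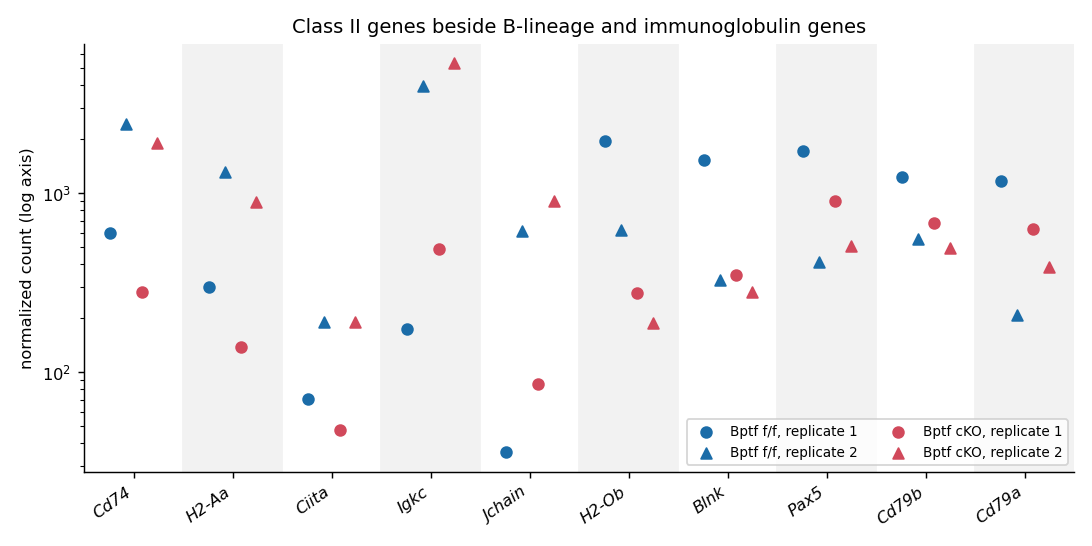
Normalized counts (log axis) of class II genes beside immunoglobulin and B-lineage genes in each library, with *Bptf* f/f in blue, *Bptf* cKO in red, replicate 1 as circles and replicate 2 as triangles. *Cd74*, *H2-Aa*, *Ciita*, *Igkc* and *Jchain* are higher in both libraries numbered 2, whereas *H2-Ob*, *Blnk*, *Pax5*, *Cd79b* and *Cd79a* are highest in f/f replicate 1.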

How the data were processed

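RNA of sorted LSK cells was sequenced in 2 *Bptf* f/f and 2 *Bptf* cKO libraries. The deposited table gives a signal per gene and library, which is the gene count the authors divided by a size factor per library. The submitters' processing notes name HISAT2, featureCounts, DESeq2, GRCm38 and mm10, without versions or settings. The authors' deposited mean, log2 fold change, its standard error and test statistic (a score each) and p-values were not used. All values were whole multiples (within 0.01) of the smallest non-zero value of their library, so 100% came out as whole reads, 14091054 to 30134742 per library. Genes with fewer than 11 reads in all are not listed, and counting error matters mainly for low genes.

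Normalized counts were compared as log2(value + 1) over genes with a mean of at least 10 with limma 3.58.1 (with trend, no factor but genotype, two-sided, Benjamini-Hochberg over all tested genes) in R 4.3.3. Alternatives were edgeR 4.0.16 (quasi-likelihood) and DESeq2 1.42.0 on recovered reads, other pseudocounts (0.5, 10), no filter or a minimum mean of 50, median recentring, no trend, the replicate block, and each library left out. The fits were tested on simulated counts with the same relative spread for every gene and no replicate effect, so that test cannot judge the choice of block. Genes named were all 10 members, the 3 most abundant tested genes of each other list, the 3 genes nearest in profile to *H2-DMb1* and *Bptf*. Every other gene named (*Blnk*, *Cd79a*, *Cd22*, *Ms4a1*, *Jchain*, *Igha*, *Iglc1*, *Iglc2*, *Ighd*, *Mzb1*, *Zbtb46*, *Ccr9*, *Xcr1*, *Clec9a*, *C1qa*, *C1qb*, *C1qc*, *Adgre1*, *Ccr2*, *Ctsh*, *Irf8*, *Rfx5* and *H2-Eb2*) was picked after its values were seen. The members and lists were chosen with earlier results of these data known. Promoters came from RefSeq (GRCm38.p6), gene positions and transcript lengths from GENCODE vM21. 1 B cell marker is not reported here and was left out of its list.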

Additional observations from a re-analysis of the deposited data

How the results depend on the processing

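Limma called 1 class II gene lower, *H2-DMb1*, and this count stayed at 1 with the same gene under the other pseudocounts and filters, under recentring and with edgeR. It was 0 without the mean-variance trend, 2 with DESeq2 on whole reads, and between 0 and 1 when each library was left out, 0 without either cKO library. Without f/f replicate 2 the 1 gene called was *H2-Ob* and not *H2-DMb1*. The count of pathway genes lower was 0, against 1 with DESeq2 and 0 to 1 with a library left out. For markers of other cells the count lower was 0, against 1 with DESeq2 and 0 to 1 with a library left out, and the count higher was 0, against 0 to 1 with a library left out. Over all genes, limma called 55 lower and 55 higher, DESeq2 438 and 252, limma without the trend 0 and 2, and between 0 and 45 lower and 1 and 78 higher with a library left out. Fewer samples enter those fits, and the cause of the other moves was not tested.

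With a library left out, the log2 fold change ran from -2.17 to 0.50 for *H2-Aa*, -0.80 to 0.28 for *H2-Ab1*, -2.39 to 0.58 for *H2-Eb1*, -0.16 to 0.22 for *H2-DMa*, -1.30 to 0.33 for *H2-DMb2*, -2.10 to 0.65 for *Cd74* and -1.27 to 0.71 for *Ciita*, so these 7 directions reversed. *H2-DMb1*, *H2-Oa* and *H2-Ob* stayed negative under every alternative listed in the methods.

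The labels do not say that a replicate number marks a shared batch. Same-numbered libraries deviated together from their group means, with a correlation of 0.452 across the 14858 tested genes. With the replicate number as a block, limma called 5 class II genes lower, *H2-DMb1*, *H2-Ob*, *H2-Aa*, *H2-Eb1* and *Cd74*, and edgeR with the block also 5. Over all genes the block gave 845 lower and 454 higher in limma, 5.69% and 3.06% of those tested, and 854 and 457 in edgeR. Pathway genes lower numbered 2 in limma and 2 in edgeR with the block, *Ctsh* and *Irf8*. Markers of other cells lower numbered 4 and 5, *Blnk*, *Ccr9*, *Xcr1* and *Zbtb46* in both fits and *Iglc2* in edgeR alone. Higher ones numbered 4 and 4, *Igkc*, *Jchain* and *Ly6c2* in both fits, *Ccr2* in limma alone and *Igha* in edgeR alone. Of the 8 dendritic cell markers, limma with the block called 3 lower and 0 higher. Of the 8 LSK markers, limma with the block called 4 lower and 0 higher. Counting error limits *H2-DMb2* most, with 14 reads in its shallowest library.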

Other observations

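The tested genes whose course over the 4 libraries lay nearest to that of *H2-DMb1* were *Bgn*, *Maged1* and *Pcp4l1*, at root-mean-square distances of 0.11, 0.21 and 0.28 on the log2 scale after each gene was centred on its own mean. *Bgn*, which encodes the proteoglycan biglycan, had 389 and 532 normalized counts in *Bptf* f/f and 35.7 and 45.2 in *Bptf* cKO. *Maged1* had 1720.0 and 2186 in f/f and 237 and 244 in cKO, and *Pcp4l1* had 779.8 and 733 in f/f and 92.9 and 81.8 in cKO. A likeness over 4 libraries, sought among 14858 genes, is a description.

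Genes that respond to interferon-gamma, which induces *Ciita* in many cells, had no called member of 10 tested in limma, edgeR or DESeq2. Of the 10, 0 were at an unadjusted p under 0.05 (15.7% of all tested genes). Their median log2 fold change was 0.22, and 7 of the 10 were higher in the replicate 2 library of both genotypes. The same held for 6 of the 10 class II genes. The share of all tested genes with this pattern was not computed, so these counts show no likeness between the lists. *Nlrc5*, the coactivator of class I genes that is related to *Ciita*, had 3149 and 4377 normalized counts in f/f and 4119 and 6442 in cKO (log2 fold change 0.47, limma adjusted p = 0.462). *Gbp2* had 1158 and 1615 in f/f and 933 and 1991 in cKO, and *Irgm1* had 1624 and 1579 in f/f and 1466 and 2101 in cKO. *H2-Eb2*, a class II beta chain gene below the filter, had 11.6 and 13.9 normalized counts in f/f and 0 and 4.23 in cKO.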
